A study of Homo sapiens with 6 samples.

Results

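The ATF4 stress response and amino acid supply genes examined here are 40 genes listed by name, with earlier results of these data known. All 40 were found among the 18056 genes of the deposited table, and all 40 were among the 13842 genes with enough counts to be tested. By role they were 8 transcription factors and cofactors, 3 eIF2α kinases, 6 feedback and growth control genes, 2 secreted factors, 11 enzymes of amino acid and one-carbon synthesis, 9 amino acid transporters and 1 tRNA export factor. They were measured by poly(A) RNA sequencing in human forebrain organoids, cell aggregates differentiated from induced pluripotent stem cells along a dorsal forebrain path. All organoids came from 1 wild-type line, DYR0100. For 6 days, organoids received either vehicle (3 libraries) or amyloid-β peptide Aβ42, the aggregation-prone cleavage product of the amyloid precursor protein, at 5 µM (3 libraries). The series describes the 3 replicates of each group as independent and biological, all from this 1 line, and the labels place every library in 1 batch. The vehicle and the age of the organoids are not given in the sources used here.

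In the integrated stress response, kinases that sense endoplasmic reticulum stress, amino acid shortage or haem and mitochondrial stress phosphorylate the initiation factor eIF2α. This lowers general translation but raises translation of the ATF4 mRNA through short upstream reading frames. ATF4 then forms dimers with C/EBP family proteins and turns on amino acid transporters, enzymes of serine, glycine, asparagine and proline synthesis, tRNA-charging enzymes and feedback genes, among them the phosphatase subunit that reverses the phosphorylation. Because ATF4 is controlled to a large extent at translation, its mRNA level is only part of its regulation. Signalling through this pathway is known to act in cortical progenitors.

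ATF4 and C/EBP dimers bind a composite element, and its letters are shown first because it is the element through which ATF4 is known to act on many of its targets. TGATGNAA was searched on both strands in the 250 bases before each RefSeq gene start (build GRCh38.p14). RefSeq starts were at hand for 31 of the 40 members, and 7 of these 31 (22.6%) held a match before at least 1 of their starts, against 279 of 11307 tested genes with a start (2.47%) and 1061 of 27305 genes in all (3.89%). Counted by start, 7 of 50 member starts (14%) held one. Over tested genes it was 294 of 16797 starts (1.75%), and in all 1104 of 35116 (3.14%). The members were listed as genes of the ATF4 response, so a higher share among them describes the list and is not a finding of these data. Each stretch below is written 5′ to 3′ on the gene's own strand, with the matching bases in capitals.
ATF3: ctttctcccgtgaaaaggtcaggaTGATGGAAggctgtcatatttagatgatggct
CHAC1: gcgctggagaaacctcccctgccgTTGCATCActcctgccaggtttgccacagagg
ASNS: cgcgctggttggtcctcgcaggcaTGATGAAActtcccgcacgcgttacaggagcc
SLC1A5: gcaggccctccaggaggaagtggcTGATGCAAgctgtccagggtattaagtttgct
CEBPG: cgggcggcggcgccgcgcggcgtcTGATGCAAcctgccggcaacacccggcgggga
PPP1R15B: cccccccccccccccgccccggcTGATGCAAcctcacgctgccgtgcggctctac
JDP2: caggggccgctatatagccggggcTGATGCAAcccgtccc
The stretches lie at chr1:212565192-212565247 on the plus strand for ATF3, chr15:40953238-40953293 on the plus strand for CHAC1, chr7:97872445-97872500 on the minus strand for ASNS and chr19:46784880-46784935 on the minus strand for SLC1A5. Those of CEBPG (chr19:33374047-33374102, plus), PPP1R15B (chr1:204412013-204412067, minus) and JDP2 (chr14:75427982-75428021, plus) complete the set. The match began between 16 bases (JDP2) and 227 bases (PPP1R15B) before the start, and only that of CHAC1 read in the reverse complement. A match is a description of these letters, not a site shown to be bound.

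Libraries held 16465390 to 16742958 estimated counts, of which the 40 members together took 0.294% to 0.322%. TBR1, a marker of deep-layer cortical neurons, was at 152, 161 and 162 TPM in vehicle and at 136, 139 and 132 TPM with Aβ42. No read was counted in any library for 5 of 8 microglia markers. These were the complement genes C1QA, C1QB and C1QC, the receptor gene TREM2 and the adaptor gene TYROBP. Several marker lists differed between groups. Over all genes tested, 12.4% were higher and 11.5% lower at an unadjusted p-value under 0.05. For 9 neuron genes the summed level ran from 4670 to 4920 TPM in vehicle and from 4340 to 4500 TPM with Aβ42, with 5 of 9 lower at an unadjusted p-value under 0.05. The summed level of 12 proliferation genes ran from 664 to 768 TPM in vehicle and from 430 to 615 TPM with Aβ42, and 11 of the 12 were lower at an unadjusted p-value under 0.05. For 5 intermediate progenitor genes the sums ran from 201 to 223 and from 133 to 158 TPM, with 4 of 5 lower. The summed level of 14 hypoxia and glycolysis genes ran from 1760 (vehicle replicate 2) to 2970 TPM in vehicle and from 3090 to 3710 TPM with Aβ42, with 4 of 14 higher and none lower. The summed choroid plexus level was highest in the replicates numbered 2, at 7570 TPM in vehicle and 6660 TPM with Aβ42, against 2840 to 3970 TPM in the other 4 libraries. The part of these differences in the results below was not tested, and in bulk tissue fewer cells of a type and less RNA per cell cannot be told apart. Of libraries that shared a replicate number, only those numbered 2 clearly deviated together (correlation 0.409, against up to 0.192 for different numbers). Results of a fit blocked on the replicate number, a choice made from these data, are given wherever it changed a call.

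Levels of the members, on the TPM scale that allows for transcript length, covered a wide range in vehicle. ATF4 itself was the most abundant at a mean of 628.5 TPM, followed by ASNS (asparagine synthetase) at 285 TPM and SLC3A2, the heavy chain that carries several amino acid transporters to the cell surface, at 212 TPM. PSAT1 and PHGDH, enzymes of serine synthesis, were at 168 and 111 TPM. The least abundant were NUPR1, a small stress-induced chromatin cofactor, at 1.55 TPM and GDF15, a secreted stress hormone, at 2.69 TPM. DDIT3 and SLC38A2, with 87.5 and 131 TPM, lay between these ends.

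**Figure D1:**
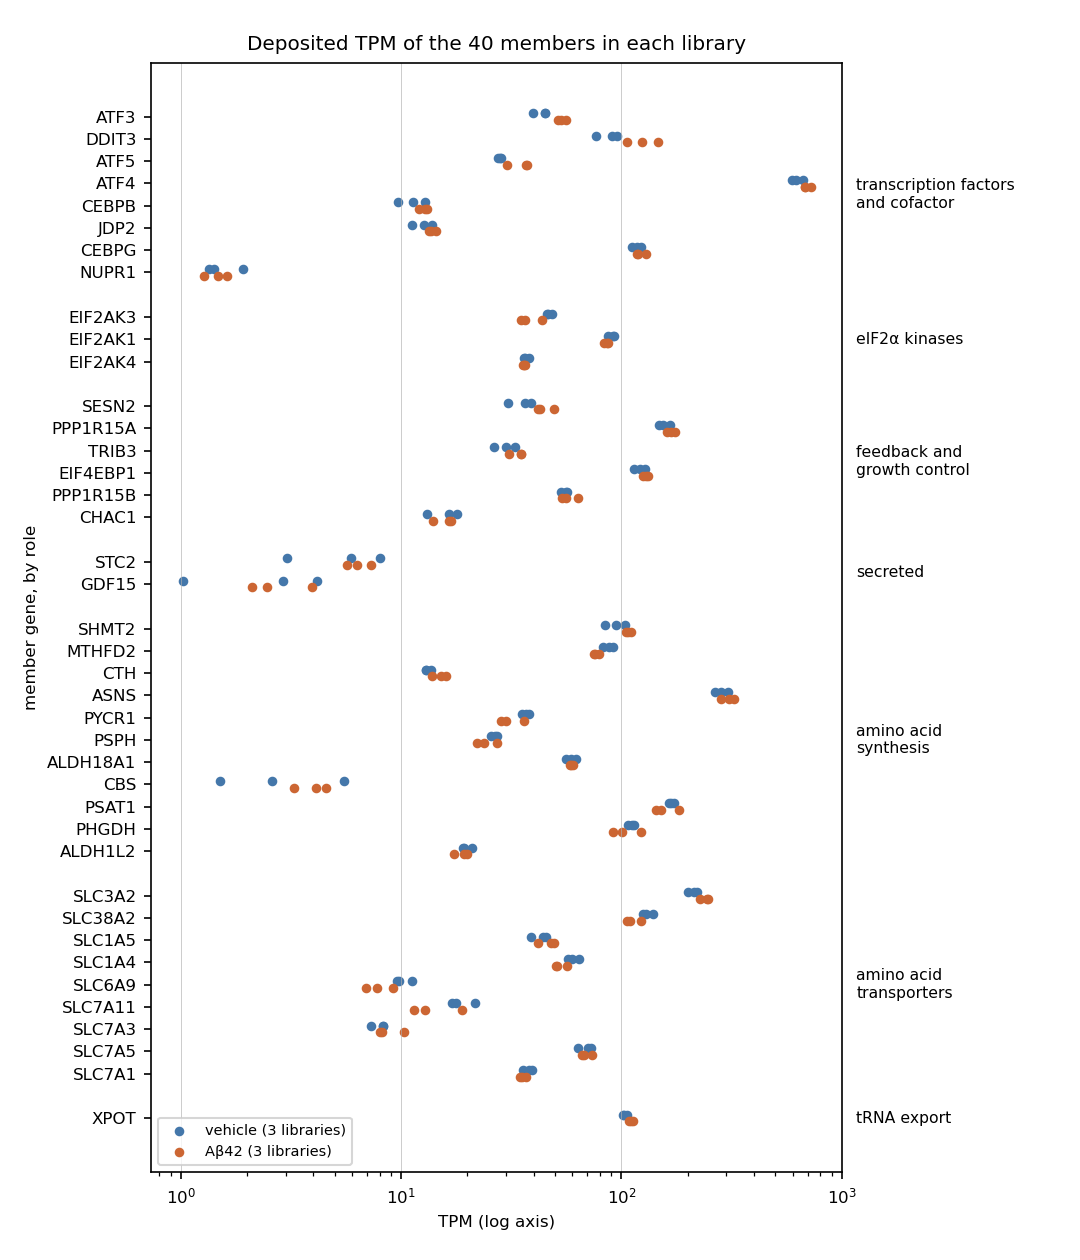
Deposited TPM (log axis) of each of the 40 members, grouped by role, with 1 point per library (blue, vehicle; orange, Aβ42). ATF4 stands highest (vehicle mean 628.5 TPM) and NUPR1 lowest (1.55 TPM), and the widest spread between libraries is in STC2, GDF15 and CBS.

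Between groups, log2 fold changes were positive in 7 of 8 transcription factors and 6 of 6 feedback genes (5 of 6 on log2(TPM + 1), where CHAC1 was negative). Signs were mixed among the transporters and the synthesis enzymes. In edgeR's quasi-likelihood test, 0 of 40 members and 0 of the 13842 genes tested (0%) passed after Benjamini-Hochberg adjustment at 0.05, and the smallest adjusted p-value was 0.0684. Unadjusted p-values under 0.05 were found in 15 of 40 members (37.5%), against 23.9% of all genes tested. Of these, 11 were higher with Aβ42 (background 12.4%) and 4 lower (background 11.5%). By limma on log2(TPM + 1), which changes both the scale and the test, the split was 7 higher and 7 lower among the members and 1066 higher and 2235 lower over all genes, and the median of all genes was -0.04. The median log2 fold change was 0.12 over the members and 0.0032 over all genes. Groups did not overlap in 15 members (background 27%), 12 of them higher (13.6%) and 3 lower (13.4%). On the TPM scale they did not overlap in 14 members (background 27.6%), 9 higher and 5 lower.

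Blocked on the replicate number, the fit called 10 of 40 members over all genes (background 14.2%), 7 higher (7.12%) and 3 lower (7.05%). The 7 were ATF4, ATF5, ATF3, DDIT3, SESN2, SHMT2 and SLC3A2, and the 3 were EIF2AK3, SLC38A2 and SLC7A11. DESeq2 was run without a block and without a filter on low counts, on 17374 genes. It called 6 members (background 4.58% of those genes), 5 higher and 1 lower. Over all those genes it called 379 higher and 417 lower. In edgeR's fit without the block, leaving out Aβ42 replicate 2 let 15 members pass (background 23.1%), 10 higher (11.5%) and 5 lower (11.6%). Besides the 10 named above, these were ASNS, PPP1R15A and PPP1R15B, which were higher, and PYCR1 and SLC1A4, which were lower. Leaving out any other library gave 0. Without vehicle replicate 2, the library that held the lowest value of the 6 in 19 of 40 members, 9 members had an unadjusted p-value under 0.05 (background 13.7%), 8 higher and 1 lower. Of the 13964 genes tested there, 1012 were higher and 908 lower at that p-value. Non-overlapping members numbered 24 without vehicle replicate 1 (background 41.3%) and 25 without Aβ42 replicate 2 (background 53.5%).

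**Figure D2:**
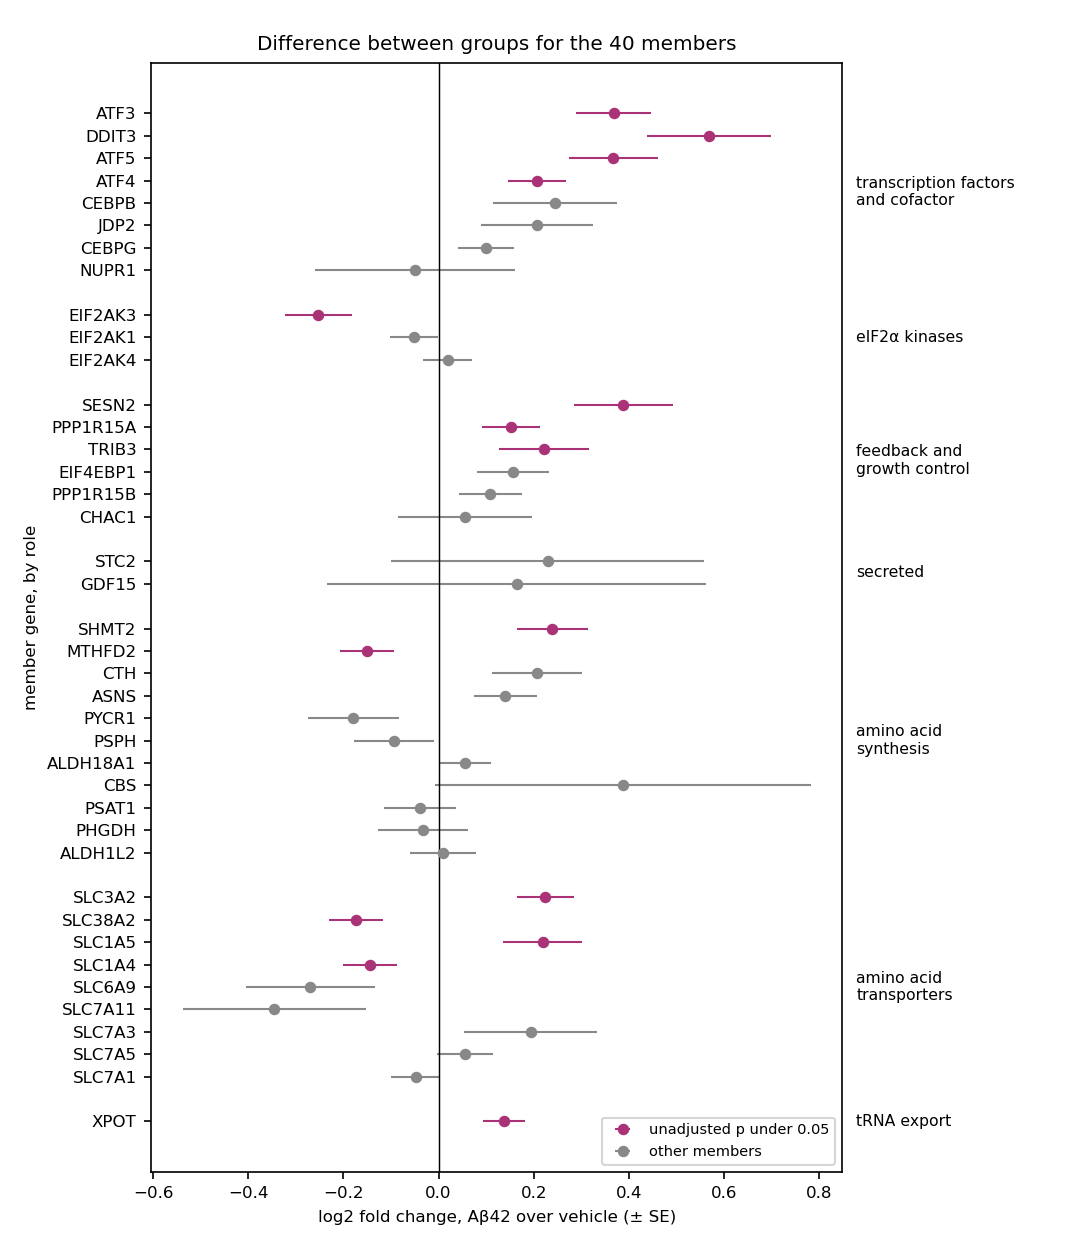
Log2 fold change of Aβ42 over vehicle with its standard error (horizontal bars) for the 40 members by role, purple where the unadjusted p-value was under 0.05. The purple transcription factor and feedback points all lie right of 0, those of the transporters lie on both sides, and none of the 40 passed adjustment over all genes.

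Among the transcription factors, 7 of 8 had a positive log2 fold change, with a median of 0.23 (0.16 on log2(TPM + 1)). Unadjusted p-values under 0.05 were found in 4, all of them higher. Over all genes tested, 12.4% were higher and 11.5% lower at that p-value, the background for this and each later role. ATF4 (Entrez gene ID 468, chr22:39520559-39522686), the hub of the response, was at 309.6, 268 and 283 CPM (counts scaled to library size, always in the order of replicates 1 to 3) in vehicle. With Aβ42 it was at 323, 320.2 and 350.0 CPM. All exposed libraries lay above all vehicle libraries, and vehicle replicate 1 was the nearest to them. Its log2 fold change was 0.21 ± 0.06 (SE), with an adjusted p-value of 0.0952 without and 0.0178 with the block.

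DDIT3 (1649, chr12:57516588-57520517) encodes CHOP, a factor that ATF4 induces and that takes part in stress-induced cell death. It was at 23.9, 18.9 and 22.4 CPM in vehicle and at 31.6, 27.0 and 37.9 CPM with Aβ42. This was the largest difference of any member, at a log2 fold change of 0.57 ± 0.13 (adjusted p-value 0.0734, with the block 0.000447), and the groups did not overlap. Its lowest exposed library was Aβ42 replicate 2, and without it the log2 fold change was 0.68 (0.00169).

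ATF3 (467, chr1:212565407-212620777), an early stress-induced factor and the member with a match in the first of the printed stretches, was at 30.7, 26.5 and 30.1 CPM in vehicle and at 35.8, 36.7 and 40.1 CPM with Aβ42. It had the smallest p-value of the members (log2 fold change 0.37 ± 0.08, adjusted p-value 0.0691, with the block 0.00353). ATF5 (22809), a relative of ATF4 that is also translated through upstream reading frames and serves mitochondrial stress, was at 19.6, 19.0 and 19.6 CPM and at 21.6, 26.3 and 27.2 CPM, a log2 fold change of 0.37 ± 0.09 (0.0779, with the block 0.0114). The vehicle libraries of ATF5 lay close together, and Aβ42 replicate 1 was nearest to them. For ATF3 and ATF5 the groups did not overlap.

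The other members of this role had unadjusted p-values over 0.05. CEBPG, CEBPB and JDP2, a repressor that shares target sequences with ATF3, differed by 0.10, 0.24 and 0.21 on the log2 scale (adjusted p-values 0.316, 0.277 and 0.301), and of these only JDP2 did not overlap between groups. NUPR1 was at -0.05 ± 0.21. The summed hypoxia and glycolysis level was also higher in every exposed library (3090 to 3710 TPM against 1760 to 2970 TPM), and its part in these values was not tested.

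Of the 3 eIF2α kinases, 1 had an unadjusted p-value under 0.05, and it was lower with Aβ42. EIF2AK3 (9451, chr2:88556741-88628145), which encodes PERK, the kinase of the endoplasmic reticulum, was at 77.9, 80.4 and 78.1 CPM in vehicle and at 60.6, 73.9 and 63.8 CPM with Aβ42. It was lower in all exposed libraries, with a log2 fold change of -0.25 ± 0.07 (adjusted p-value 0.0891, with the block 0.0105). Aβ42 replicate 2 was nearest to vehicle, and without it the log2 fold change was -0.34 (0.00125). EIF2AK1, the haem-regulated kinase that also relays mitochondrial stress, and EIF2AK4, the sensor of uncharged tRNA, had log2 fold changes of -0.05 ± 0.05 and 0.02 ± 0.05. Kinase activity is set by phosphorylation, which these data do not measure.

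All 6 feedback and growth control genes had positive log2 fold changes, with a median of 0.15 (on log2(TPM + 1), all but CHAC1, with a median of 0.09), and 3 had an unadjusted p-value under 0.05. SESN2 (83667, chr1:28259518-28282491), a leucine sensor that restrains mTORC1 and a known target of both ATF4 and p53, was at 47.9, 39.0 and 50.2 CPM in vehicle and at 56.8, 55.4 and 67.3 CPM with Aβ42. The groups did not overlap, and the log2 fold change was 0.39 ± 0.10 (adjusted p-value 0.0882, with the block 0.00131). Without vehicle replicate 2, its lowest library, the log2 fold change was 0.29.

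TRIB3 (57761), a pseudokinase that binds ATF4 and dampens it, was at 24.8, 19.9 and 22.02 CPM in vehicle and at 23.7, 27.1 and 27.0 CPM with Aβ42. PPP1R15A (23645), the inducible phosphatase subunit that restores eIF2α, was at 139.9, 123 and 129 CPM and at 145, 137 and 154 CPM. In both genes vehicle replicate 1 lay above the lowest exposed library, so the groups overlapped. Differences on the log2 scale were 0.22 ± 0.10 for TRIB3 (adjusted p-value 0.191) and 0.15 ± 0.06 for PPP1R15A (0.166), and neither passed with the block. PPP1R15B, the constitutive phosphatase subunit, EIF4EBP1, a translation repressor, and CHAC1, which breaks down glutathione, had log2 fold changes of 0.11, 0.16 and 0.06. CHAC1, a sensitive reporter of ATF4 and CHOP in many cell types, was at 6.71 to 9.07 CPM in vehicle and at 7.498 to 8.90 CPM with Aβ42.

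The secreted factors varied more between libraries than between groups. GDF15 had 9 to 28 counts per library, and STC2, a secreted glycoprotein, ran from 4.86 CPM in vehicle replicate 2 to 13.2 CPM in vehicle replicate 1. Their log2 fold changes were 0.16 ± 0.40 and 0.23 ± 0.33, with standard errors larger than the differences, and each changed sign when 1 vehicle library was left out (-0.15 for GDF15 without replicate 3 and -0.08 for STC2 without replicate 2). GDF15 was also negative without Aβ42 replicate 3.

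**Figure D3:**
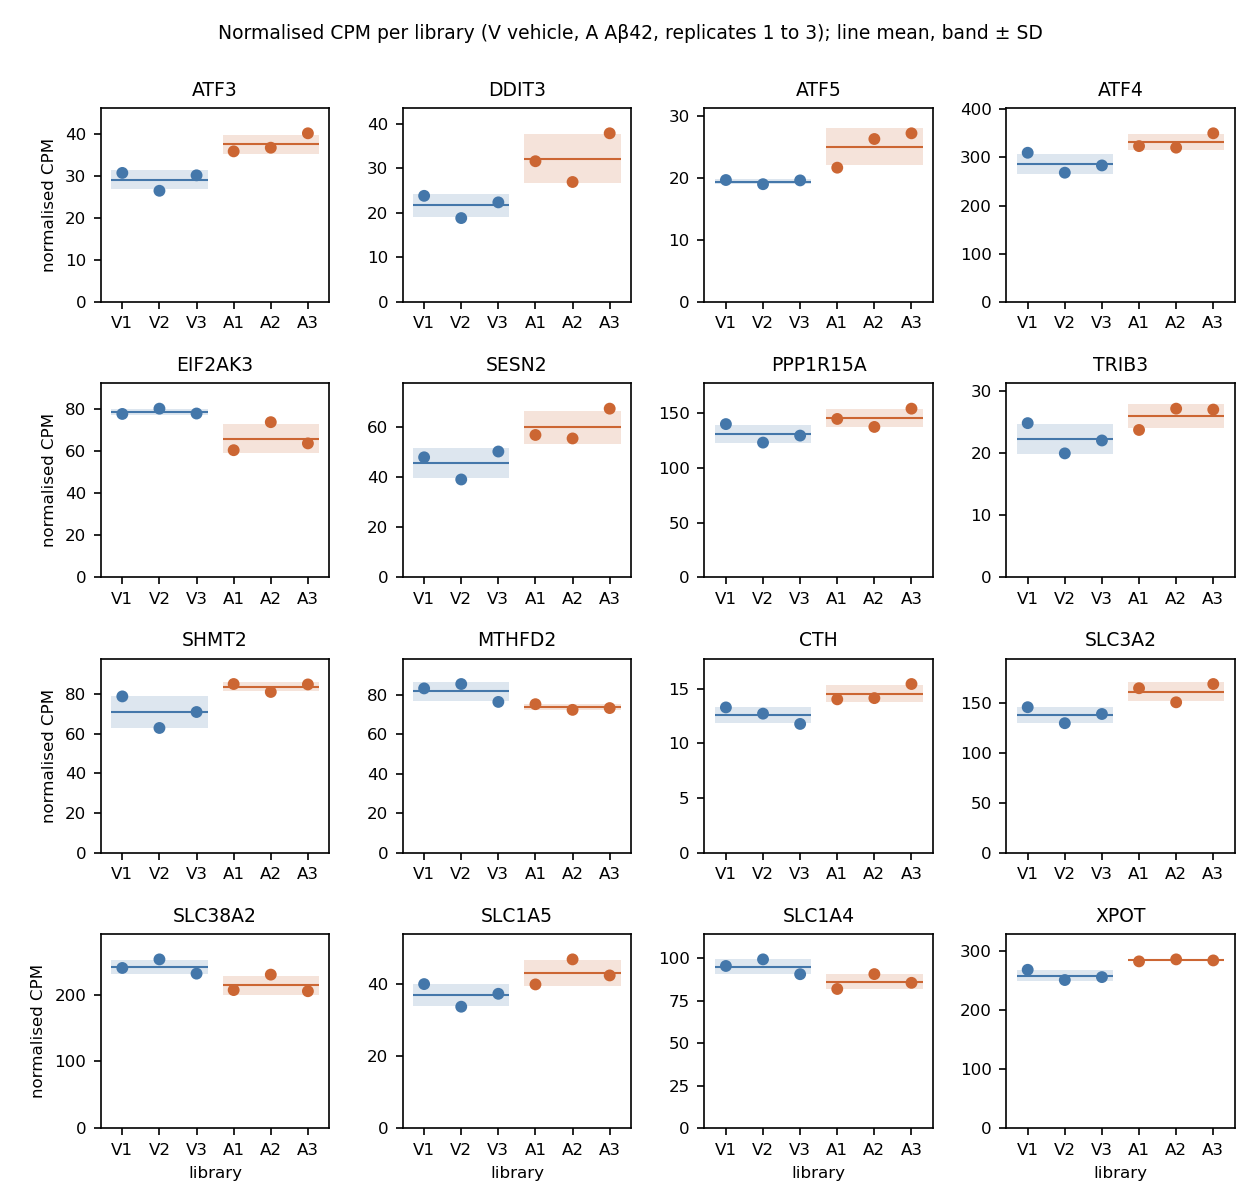
Normalised CPM of 16 members in each of the 6 libraries (vertical axes from 0; blue V1 to V3, vehicle; orange A1 to A3, Aβ42), with the group mean as a line and ± SD as a band. DDIT3, ATF3, ATF5, ATF4 and SESN2 show 3 exposed libraries above 3 vehicle libraries, while EIF2AK3, MTHFD2 and SLC38A2 show the opposite order.

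In amino acid and one-carbon synthesis, 6 of 11 enzymes had a positive and 5 a negative log2 fold change, the median was 0.0093, and 1 enzyme in each direction had an unadjusted p-value under 0.05. With CBS summed with its near-identical copy CBSL, 5 were positive and 6 negative, the median was -0.03, and 1 was higher and 2 lower at that p-value. The pair with opposite signs belongs to the mitochondrial folate pathway. SHMT2 (6472), which moves a carbon unit from serine to folate in mitochondria, was at 78.9, 63.0 and 71.1 CPM in vehicle and at 85.2, 81.2 and 85.0 CPM with Aβ42. The groups did not overlap (log2 fold change 0.24 ± 0.07, adjusted p-value 0.108, with the block 0.0135).

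MTHFD2 (10797), the next enzyme of that pathway and one that is prominent in dividing cells, was at 83.2, 85.4 and 76.4 CPM in vehicle and at 75.2, 72.3 and 73.2 CPM with Aβ42. Here all exposed libraries lay below all vehicle libraries, with a log2 fold change of -0.15 ± 0.06 (adjusted p-value 0.147, with the block 0.0932). The proliferation genes were also lower, at the summed levels given above, and their part in the MTHFD2 value was not tested. CTH (1491), which makes cysteine from cystathionine, was at 13.3, 12.7 and 11.8 CPM and at 14.02, 14.1 and 15.4 CPM, without overlap but with an unadjusted p-value of 0.0528 (log2 fold change 0.21 ± 0.10, adjusted 0.214).

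ASNS (440), a standard ATF4 target with a match in the printed stretches, was at 232, 198 and 213 CPM in vehicle and at 244, 219 and 246 CPM with Aβ42, a log2 fold change of 0.14 ± 0.07 (adjusted p-value 0.228). Its groups overlapped through Aβ42 replicate 2, which lay below vehicle replicate 1. Without that exposed library the log2 fold change of ASNS was 0.19 (0.0378), in a fit where 23.1% of all genes passed. ASNS, the serine and proline enzymes, CBS, SLC7A11 and the secreted factors were chosen for values by library after their values were seen, outside the rule given with the methods. ALDH18A1, which starts proline synthesis, and ALDH1L2, a mitochondrial folate enzyme, had log2 fold changes of 0.06 and 0.01.

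The enzymes that make serine from glycolytic carbon had 1 exposed library apart from the others. PHGDH, the entry enzyme, was at 73.8, 70.5 and 68.1 CPM in vehicle and at 59.97, 80.1 and 67.4 CPM with Aβ42. PSAT1 was at 135, 127 and 126 CPM and at 119, 143 and 116 CPM. In both, Aβ42 replicate 2 was the highest of the 6 libraries and the other exposed libraries were the lowest. Their log2 fold changes were -0.03 and -0.04 with all libraries and -0.15 (adjusted p-value 0.105) and -0.14 (0.0617) without that library. PSPH, the last enzyme of serine synthesis, and PYCR1, of proline synthesis, also had replicate 2 as the highest exposed library. They went from -0.09 to -0.16 (0.202) and from -0.18 to -0.28 (0.034) when it was left out.

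CBS, which makes cystathionine from homocysteine, cannot be read by its own row. It was listed at 1.74 to 6.20 CPM in vehicle, while CBSL, a near-identical copy in the annotation, was listed at 88.2 to 104 CPM, so the deposited values place most counts on the copy. CBS alone had a log2 fold change of 0.39 ± 0.40, CBSL one of -0.23 ± 0.09 (adjusted p-value 0.155). Summed, they were at 106, 98.7 and 91.4 CPM in vehicle and at 77.9, 94.96 and 84.0 CPM with Aβ42, a log2 fold change of -0.21 ± 0.08 (0.155). The direction of CBS was therefore reversed by counting both copies.

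The amino acid transporters were divided, with 4 of 9 positive and 5 negative, a median of -0.05, and 2 in each direction at an unadjusted p-value under 0.05. SLC3A2 (6520, chr11:62856109-62888860), the shared heavy chain introduced above, was at 145.5, 129.5 and 139 CPM in vehicle and at 164.5, 150.4 and 169 CPM with Aβ42. The groups did not overlap (log2 fold change 0.22 ± 0.06, adjusted p-value 0.0826, with the block 0.00796). Of its light chains, SLC7A5, which imports leucine and other large neutral amino acids, had a log2 fold change of 0.06 ± 0.06.

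SLC7A11 (23657), the light chain that imports cystine in exchange for glutamate, was at 66.7, 82.6 and 68.7 CPM in vehicle and at 50.9, 74.2 and 46.5 CPM with Aβ42. Aβ42 replicate 2 lay among the vehicle libraries and the other exposed libraries lay below all of them. The log2 fold change was -0.34 ± 0.19 (adjusted p-value 0.332), it passed with the block (0.00416), and without Aβ42 replicate 2 it was -0.58 (0.00288). The replicates numbered 2 were the highest of their groups, which is the pattern that the block takes out.

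SLC38A2 (54407, chr12:46358188-46372773), a sodium-coupled importer of small neutral amino acids and a common ATF4 target, was at 240.3, 253 and 232 CPM in vehicle and at 207, 230.3 and 205 CPM with Aβ42. It was lower in all exposed libraries, with a log2 fold change of -0.17 ± 0.06 (adjusted p-value 0.116, with the block 0.0247). The related exchangers SLC1A4 (6509) and SLC1A5 (6510) had opposite signs. SLC1A4, which carries serine and alanine, was at 95.5, 99.4 and 90.6 CPM in vehicle and at 81.9, 90.7 and 85.5 CPM with Aβ42, a log2 fold change of -0.15 ± 0.06 (0.159). SLC1A5, a glutamine exchanger with a match in the printed stretches, was at 39.9, 33.6 and 37.2 CPM and at 39.8, 46.7 and 42.3 CPM, a log2 fold change of 0.22 ± 0.08 (0.149).

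In SLC1A4 and SLC1A5 the groups met at their edges, and neither passed with the block. Without Aβ42 replicate 2, SLC1A4 had a log2 fold change of -0.18 (0.0297). The cationic transporters SLC7A1 and SLC7A3 had log2 fold changes of -0.05 and 0.19, and the glycine transporter SLC6A9 one of -0.27 ± 0.13 (0.249). XPOT (11260), which exports tRNA from the nucleus and is a target of ATF4, was at 269, 251 and 256 CPM in vehicle and at 283, 286 and 285 CPM with Aβ42. The exposed libraries of XPOT lay within a narrow band above vehicle, and its log2 fold change was 0.14 ± 0.05 (0.116, with the block 0.0715).

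Libraries of 1 group also differed among themselves. The transcription factors deviated from their vehicle mean, on the log2 scale and on average, by 0.13, -0.10 and -0.03 in the vehicle libraries and by 0.20, 0.22 and 0.34 in the exposed ones. For the feedback genes it was 0.11, -0.08 and -0.03, and then 0.18, 0.15 and 0.22. For the transporters it was 0.04, 0.01 and -0.05, and then -0.07, 0.07 and -0.10, so that only Aβ42 replicate 2 was above 0 among the exposed libraries. Aβ42 replicate 2 was the highest exposed library in 7 of 9 transporters. Over all members it was the exposed library nearest to the vehicle mean in 18 of 40 members (45%), against 57.8% of all genes tested. The median coefficient of variation within a group was 6.31% in vehicle and 6.98% with Aβ42, against 5.5% and 7.16% over all genes.

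**Figure D4:**
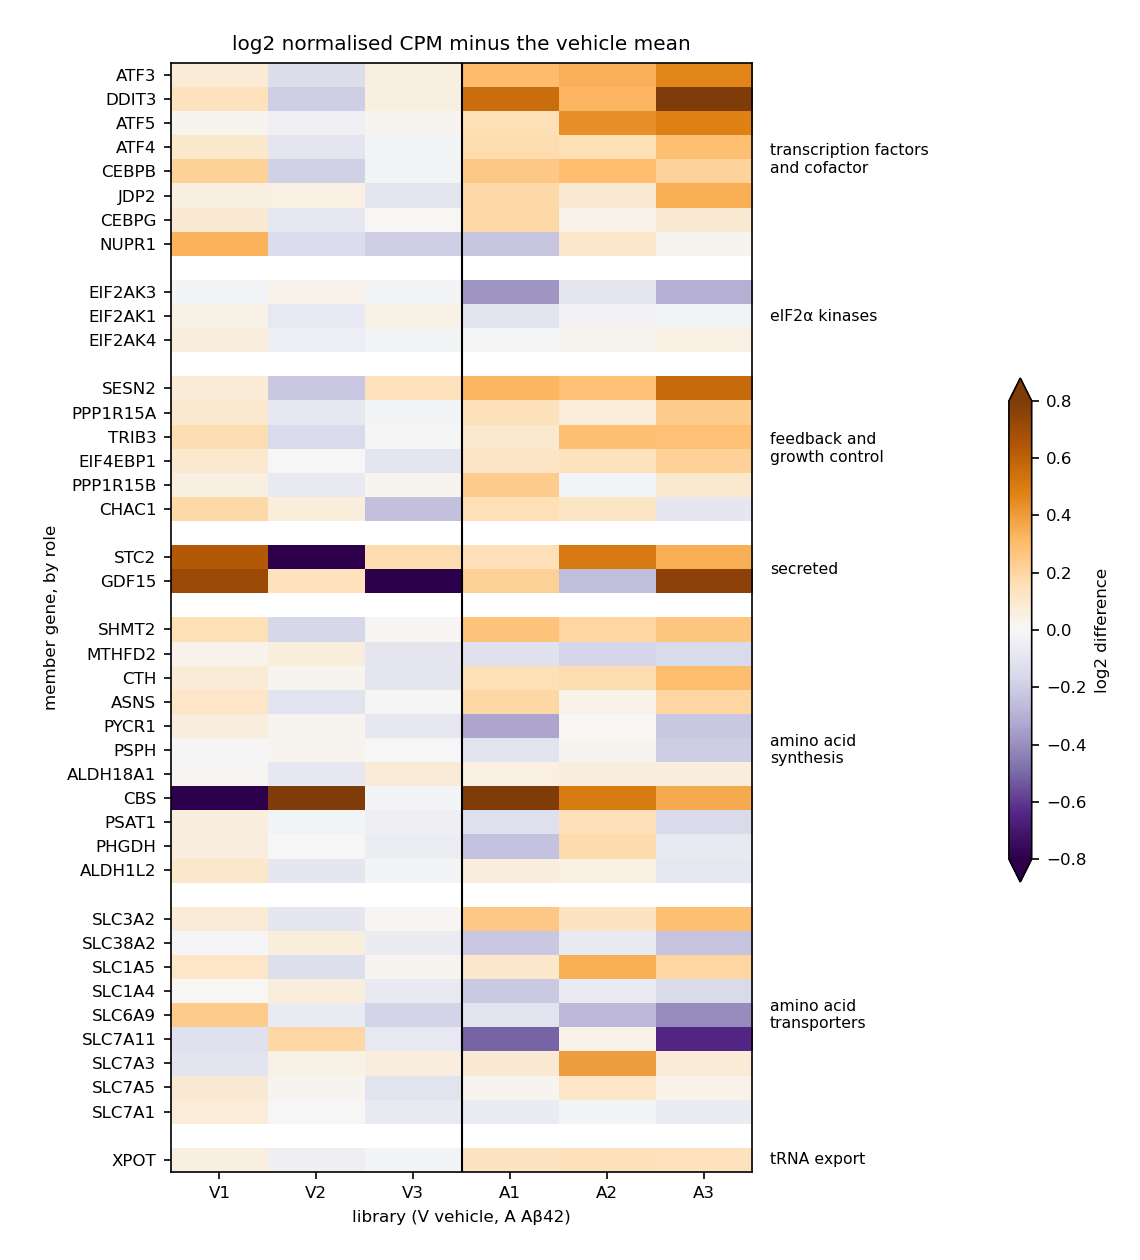
Log2 normalised CPM of the 40 members minus their vehicle mean (orange, above; purple, below; colours end at ±0.8) in the 6 libraries, by role. The transcription factor rows other than NUPR1 are orange or near 0 in the 3 Aβ42 columns, the transporter rows hold both colours, and SLC7A11 is purple in A1 and A3 but near 0 in A2.

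The higher members had, by the median, shorter transcripts than the lower ones, which is given as a description without a test. Relative to the median tested gene, the length implied by counts and TPM had a median of 0.601 in the 11 members higher at an unadjusted p-value under 0.05 and of 1.31 in the 4 that were lower. Among the 11, DDIT3 was at 0.200 and ATF4 at 0.370, but SESN2 at 1.04 and XPOT at 2.01. Among the 4, SLC38A2 was at 1.48 but MTHFD2 at 0.75. SLC7A11, which was in neither set, was at 3.11. Over all genes, the median log2 fold change was 0.04 in the shortest quartile and -0.04 in the longest (Spearman's rho across 13493 genes, which share libraries, -0.16). After a correction of each library for length, chosen after the data were seen, 10 members were higher and 5 lower at an unadjusted p-value under 0.05 (37.5%, background 23.5%). The log2 fold changes were then 0.51 for DDIT3, 0.34 for ATF3 and ATF5, 0.17 for ATF4 and 0.39 for SESN2. With the block as well, 11 members passed (background 14.5%), 8 higher and 3 lower, where 1037 genes passed higher and 965 lower. They were the 10 members called with the block alone, and XPOT (adjusted p-value 0.0278).

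Among other genes of the pathway, none passed over all genes in the fit without the block. At an unadjusted p-value under 0.05, 12.4% of all genes were higher and 11.5% lower, the background for the lists below. Of 17 genes of eIF2, its exchange factor eIF2B and stress relays, 4 were higher and 1 lower at an unadjusted p-value under 0.05 (list median 0.08, against 0.0032 over all genes). The smallest p-values were those of the eIF2B subunits EIF2B4 (log2 fold change 0.24) and EIF2B2 (0.26). Of 13 tested further ATF4 and CHOP targets, 4 were higher and 0 lower (median 0.14). Those with the smallest p-values were the death receptor gene TNFRSF10B (0.16) and HERPUD1 (0.20), of endoplasmic reticulum protein degradation, and neither passed with the block (0.0521 and 0.0545). Of 12 tRNA synthetases, 3 were higher and 0 lower (median 0.05). AARS1, the alanyl-tRNA synthetase, stood at 210.5 ± 9.95 CPM without and 259 ± 18.04 CPM with the peptide (mean ± SD, 3 libraries each), and its log2 fold change was 0.30 ± 0.06 (adjusted p-value 0.0684, with the block 0.00146), and SARS1 was at 0.14 ± 0.05.

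On the supply side of the wider pathway, 21 other amino acid transporters were tested. Of these, 2 were higher and 6 lower at an unadjusted p-value under 0.05 (background 12.4% and 11.5%), with a median of -0.13. SLC38A1, a neuronal glutamine importer and close relative of SLC38A2, was at 454 ± 27.3 and 367 ± 38.1 CPM (log2 fold change -0.31 ± 0.07, adjusted p-value 0.0734, with the block 0.000941). SLC7A6, another light chain of SLC3A2, was at 69.7 ± 5.32 and 57.5 ± 3.06 CPM (-0.28 ± 0.07, 0.0734, with the block 0.00543). Of 25 tested other amino acid and one-carbon enzymes, 5 were higher and 2 lower (median 0.02). Those with the smallest p-values were MTHFD2L (-0.40), a relative of MTHFD2, and TYMS (-0.49), the thymidylate synthase that is also on the proliferation list. Of 27 genes of amino acid sensing by mTORC1, 5 were higher and 2 lower (median 0.02). The smallest p-values were those of NPRL2 (0.42), a subunit of the GATOR1 brake on mTORC1, and RRAGD (0.21), a Rag GTPase. With the block, 7.12% of all genes passed higher and 7.05% lower. In the lists, 1 higher and 1 lower gene passed among the eIF2 relays, 2 and 0 among the further targets and 1 and 0 among the synthetases. The counts were 1 and 5 among the transporters, 1 and 3 among the enzymes and 2 and 0 among the sensing genes. EIF2B2, MTHFD2L, TYMS, NPRL2 and RRAGD were among the genes that passed.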

How the data were processed

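For each gene, the table the authors deposited gives read counts and TPM in all 6 libraries. Per the submitters' processing notes, STAR 2.7.11b, featureCounts 2.0.6 and FastQC were used with build GRCh38. The annotation, the strand setting of the counting and how shared reads were divided are not given in the sources used here. Only 86.9% to 87.5% of the deposited count values were whole, so they were treated as estimated counts and rounded. Among the members, 8 had fractional counts in some library (ATF4, ATF5, ASNS, PSPH, MTHFD2, EIF2AK1, CBS and JDP2), and reads shared with copies or overlapping features may be among them. The deposited TPM values, scaled by the authors for length and library total, were used for levels between genes.

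Genes were kept by filterByExpr of edgeR 4.0.16, scaled by TMM and compared with edgeR's quasi-likelihood test (robust, two-sided, R 4.3.3), with Benjamini-Hochberg adjustment over all genes tested and a threshold of 0.05. Standard errors were derived from each log2 fold change and its F statistic (change over the root of F). Alternatives used DESeq2 1.42.0, limma 3.58.1 on log2(TPM + 1) and log2(TPM + 0.1), other scaling and filters, the replicate block, a length correction (loess, span 0.5) and each library left out. The members, roles and lists were chosen with earlier results of these data known. Values per library were given for ATF4, ATF5 and DDIT3, for members with an unadjusted p-value under 0.05, and for the 3 smallest p-values in each of the 3 large roles; other lists name their 2 smallest. Gene positions and promoters are from RefSeq, GRCh38.p14.

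After subtracting each group's mean, the 12187 genes averaging 50 counts or more correlated at 0.192, 0.409 and 0.135 between vehicle and Aβ42 libraries numbered 1, 2 and 3, while libraries with different numbers reached -0.318 to 0.192. All same-numbered values exceeded 0.1, so same-numbered libraries were treated as pairs, a choice made from the data and not from the labels. The highest different-numbered value exceeded 0.1 too, and only number 2 stood clearly above it. All results with the block rest on this choice. No libraries were duplicates (chi-square per gene 3.16 to 21.2, where sampling alone gives 1).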

Additional observations from a re-analysis of the deposited data

How the results depend on the processing

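The 16 members chosen by the rule for named genes were picked largely by small p-values in these same libraries. That choice favours a kept direction, and none of the 16 changed direction under the 15 alternatives. Of all 40 members 8 did (CHAC1, PSAT1, PHGDH, ALDH1L2, STC2, NUPR1, EIF2AK4 and GDF15), and CBS went to -0.21 when summed with CBSL; that sum and the length corrections were chosen after the data were seen. The count of genes called, 0 in the fit without a block (3302 at an unadjusted p-value under 0.05), was 360 with no filter on low counts, 796 by DESeq2, 1962 with the replicate block and 2002 with the block and the length correction. The count of members called, 0 in that fit (15 unadjusted), was 1, 6, 10 and 11 in the same order. Both counts stayed at 0 with RLE scaling, a mean of at least 10 counts, either TPM scale and the length correction alone. Leaving out each library in turn gave 0 to 3224 genes and 0 to 15 members called, 9 to 22 members at an unadjusted p-value under 0.05 (13.4% to 37% of all genes) and 16 to 25 members without overlap (32% to 53.5%). The median log2 fold change of the synthesis enzymes was -0.0704 on log2(TPM + 1) and -0.0737 on log2(TPM + 0.1), where the median of all genes was -0.04, it was -0.0327 with CBS and CBSL summed, and it ran from -0.0346 to 0.0601 over the left-out libraries. The median of the transcription factors kept its sign under every alternative run and ran from 0.1555 to 0.3122. That of the transporters stayed negative but small. It was -0.0093 without vehicle replicate 1 and -0.0138 with the length correction. Its lowest value, -0.0885, was on log2(TPM + 0.1), where the median of all genes was -0.0434. No decrease of the transporters as a group is read from the kept sign. The cause of the filter and DESeq2 differences was not tested. At 9 to 28 counts, GDF15 is limited by depth.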
